A study of Mus musculus with 4 samples.

Results

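The Wnt signaling pathway was followed here through 40 genes, which are 10 genes for ligands and their acylation, 11 receptors and coreceptors, 2 regulators of receptor turnover, 5 secreted inhibitors, 4 components of beta-catenin and its destruction complex, 4 TCF/LEF transcription factors and 4 feedback and target genes. Members were all probes whose gene name in the scanner files was one of these 40, and they took up 54 of the 55681 probes and 40 of the 36163 gene names on the array. Transcript levels were measured on 4 single-color Agilent arrays, with 1 array per group. All RNA came from E14Tg2A, a mouse embryonic stem (ES) cell line of the 129/Ola strain.

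The ES group was the untreated line at day 0, grown on gelatin in serum medium with leukemia inhibitory factor (LIF). The epiblast-like aggregate (ELA) group was the same line after 2 days as floating aggregates in a chemically defined minimal medium, without serum or LIF. The other two groups were ELA formed over the same 2 days in the presence of 5-azacytidine at 50 nM (AZA), which blocks DNA methyltransferases, or of 5-carboxy-8-hydroxyquinoline at 100 µM (CHQ), which blocks lysine demethylases of histones. RNA from 3 sets of treatments of 1 cell line was pooled for each array, so a group has no replicate array, and no p-value is given. The ES and ELA arrays were on 1 slide and the AZA and CHQ arrays on another. For every treated array set against ELA or ES, slide and treatment therefore cannot be told apart, whereas ELA against ES and CHQ against AZA were compared within a slide.

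Wnt proteins are secreted ligands that carry a lipid added by the acyltransferase Porcupine (Porcn). They bind Frizzled (Fzd) receptors together with the coreceptors Lrp5 and Lrp6, and this stops a complex of Axin, Apc and the kinase Gsk3b from marking beta-catenin (Ctnnb1) for destruction. Beta-catenin then joins TCF/LEF factors on DNA and turns on targets such as Axin2 and Sp5, several of which feed back on the pathway. In mouse ES cells the pathway is known to sustain self-renewal, and in the embryo it takes part in forming the primitive streak from the epiblast.

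Spots well above background made up 60.6% (ES), 55.1% (ELA), 69.1% (AZA) and 69.2% (CHQ) of each array. In the same order, local background had medians of 59, 77, 14 and 13 intensity units, so the ELA array had the highest background and the fewest detected spots. Levels are quantile-normalized log2 intensities, and a log2 difference of 1 is a 2-fold change. A gene was called higher or lower when its log2 difference was at least 1, the mean level of both arrays was at least 7.5 and Feature Extraction marked the probe as well above background for either of them. Genes that met the last 2 conditions are those said to be tested, although no statistical test was possible. Repeat spots of 1 probe on 1 array differed with an SD of 0.147 log2 units over 432 probes, which covers error within an array and not the spread between cultures. In bulk RNA, fewer cells of a type and less RNA per cell cannot be told apart. Since each probe has its own brightness, the level of a gene is set only against the same gene on another array.

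Marker genes were read as a check of the labels. The 5 pluripotency markers were well above background on every array, and the log2 of their summed level was 17.32 in ES, 15.42 in ELA, 17.56 under AZA and 16.27 under CHQ. Zfp42 (15.80, 11.99, 15.72 and 15.04), Esrrb (14.93, 12.08, 15.98 and 13.97) and Sox2 (13.43, 12.77, 13.76 and 13.41) were lowest in ELA. Nanog was low in both ELA and CHQ, at 15.03, 12.53, 15.39 and 12.54, and Pou5f1 was lower in both treated pools than in ELA, at 14.95, 14.46, 14.05 and 13.56. The log2 of the summed level of 3 primed epiblast markers was 17.75, 18.78, 17.54 and 17.85 in the same order. Of these, Fgf5 had levels of 11.61, 14.47, 11.94 and 13.33 and Dnmt3b of 17.44, 18.49, 16.78 and 17.44, both highest in ELA, whereas Otx2 was highest under AZA, at 15.27, 15.85, 16.17 and 15.54. Summed primitive streak markers had levels between 10.03 and 10.45 on the 4 arrays. Of these, Eomes was at 9.58, 10.14, 9.44 and 9.25, Gsc was at 6.71, 7.13, 7.48 and 6.68, Mesp1 was well above background only with AZA and CHQ, at 7.75 and 7.89, and Mixl1 with CHQ alone. Summed early neural markers ranged from 11.98 under AZA to 13.58 in ELA. Of these, Nes was at 12.68, 13.52, 11.85 and 12.28 and Sox1 at 7.87, 8.18, 7.83 and 7.78. Pax6 was highest in ES, at 8.04, 7.91, 6.73 and 6.43, and not well above background under CHQ. Summed trophoblast markers ranged from 9.35 in ELA to 10.51 under CHQ. Of these, Krt7 was at 9.10, 8.73, 9.60 and 10.05. Hand1 was at 7.63, 6.39, 7.56 and 7.87, and not well above background in ELA. Cdx2 was well above background only in ES, at 6.85, and Elf5 only under CHQ, at 6.53. Summed primitive endoderm markers were at 9.03, 9.43, 9.65 and 10.97, and of these Gata6 and Sox17 were well above background only with AZA and CHQ. Gata4 had nearly level values of 7.46, 7.45, 7.70 and 7.73, and Dab2 was highest in ELA, at 7.48, 8.25, 6.78 and 6.91. The 4 fibroblast markers were above background on every array, with sums of 12.37, 13.71, 13.03 and 11.69. Of these, Thy1 (12.08, 13.58, 12.78 and 11.27) and Col1a2 (8.73, 9.56, 7.69 and 7.57) were highest in ELA, whereas Col1a1 (8.61, 7.71, 9.02 and 8.51) was lowest there and Pdgfrb (7.16, 7.40, 9.30 and 8.16) was highest under AZA. Whether these marker differences have a part in the values of the Wnt members was not tested.

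The ES–ELA comparison asks which members moved between the ES state and the primed ELA state. In ELA, 6 members were called higher (Fzd1, Fzd2, Fzd7, Fzd8, Sfrp1 and Lef1) and 3 lower (Wnt6, Porcn and Sp5) of 35 that could be tested. Over all 18896 genes tested, 10.0% were called, 4.46% higher and 5.59% lower, against 25.7%, 17.1% and 8.57% of the members tested. The median difference of the members was 0.27, beside −0.02 over all genes tested, but it was −0.29 beside −0.59 when the arrays were scaled to spike-in probes. With that scaling the calls split into 2 higher and 5 lower, and Fzd1, Fzd7, Sfrp1 and Lef1 stayed above 0 but below the size rule, at 0.77, 0.47, 0.56 and 0.56. The shares of all genes given above do not apply to that scaling, for which none were taken. Wnt6 and Sp5 passed the condition on background only through the ES array, where they were high, and with both arrays required the calls were 6 higher and 1 lower of 33, beside 4.36% and 5.18% of all genes. Because 1 array stood for each state, these shares describe these pools only.

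The 2 treatment comparisons set ELA formed with AZA or with CHQ against untreated ELA. Whether a member depends on the enzymes that these drugs block was not tested. With AZA, 3 of 34 tested members were called higher than in ELA (Wnt6, Wnt8a and Dkk3) and 7 lower (Wnt4, Fzd1, Fzd2, Fzd3, Fzd8, Gsk3b and Tcf7l2). The background here was high, since 25.6% of all genes tested were called, 14.2% higher and 11.4% lower, against 29.4%, 8.82% and 20.6% of the members tested. With CHQ, 6 of 36 tested members were called higher than in ELA (Wnt3, Wnt6, Wnt8a, Dkk3, Lef1 and Sp5) and 6 lower (Fzd2, Fzd3, Fzd8, Sfrp1, Sfrp2 and Tcf7l2). Over all genes, 26.6% were called, 14.8% higher and 11.9% lower, against 33.3% of the members. The median of the members was −0.20 with AZA, beside −0.07 over all genes tested, and −0.17 with CHQ, beside −0.09. Here too Wnt6, and with CHQ also Wnt3 and Sp5, passed only through the treated array. With both arrays required, 2 were called higher and 7 lower of 33 with AZA, and 3 higher and 6 lower of 33 with CHQ, beside 12.6% and 11.5% and 13.0% and 12.1% of all genes. The total share of members called was near the background in both comparisons. Both use the same ELA array, as does the ES–ELA comparison, so any feature of that array enters each of them.

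Within the treated slide, CHQ was set against AZA at their single doses, which differ. With CHQ, 6 of 35 tested members were called higher (Wnt3, Wnt4, Fzd1, Gsk3b, Lef1 and Nkd1) and 2 lower (Fzd9 and Sfrp2). Over all genes tested, 10.3% were called, 5.53% higher and 4.81% lower, against 22.9%, 17.1% and 5.71% of the members tested. The median difference of the members was −0.19, beside −0.02 over all genes. The ES–ELA and AZA–CHQ comparisons share no array, and Fzd1 and Lef1 were called in both, which is 2 of the 9 members called in the former and 2 of the 8 called in the latter. They are 5.88% of the 34 members tested in both, beside 2.65% of all 17692 genes tested in both, and 2 genes are too few to read a difference from. With spike-in scaling neither Fzd1 nor Lef1 was called in ELA against ES, at 0.77 and 0.56.

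**Figure D1:**
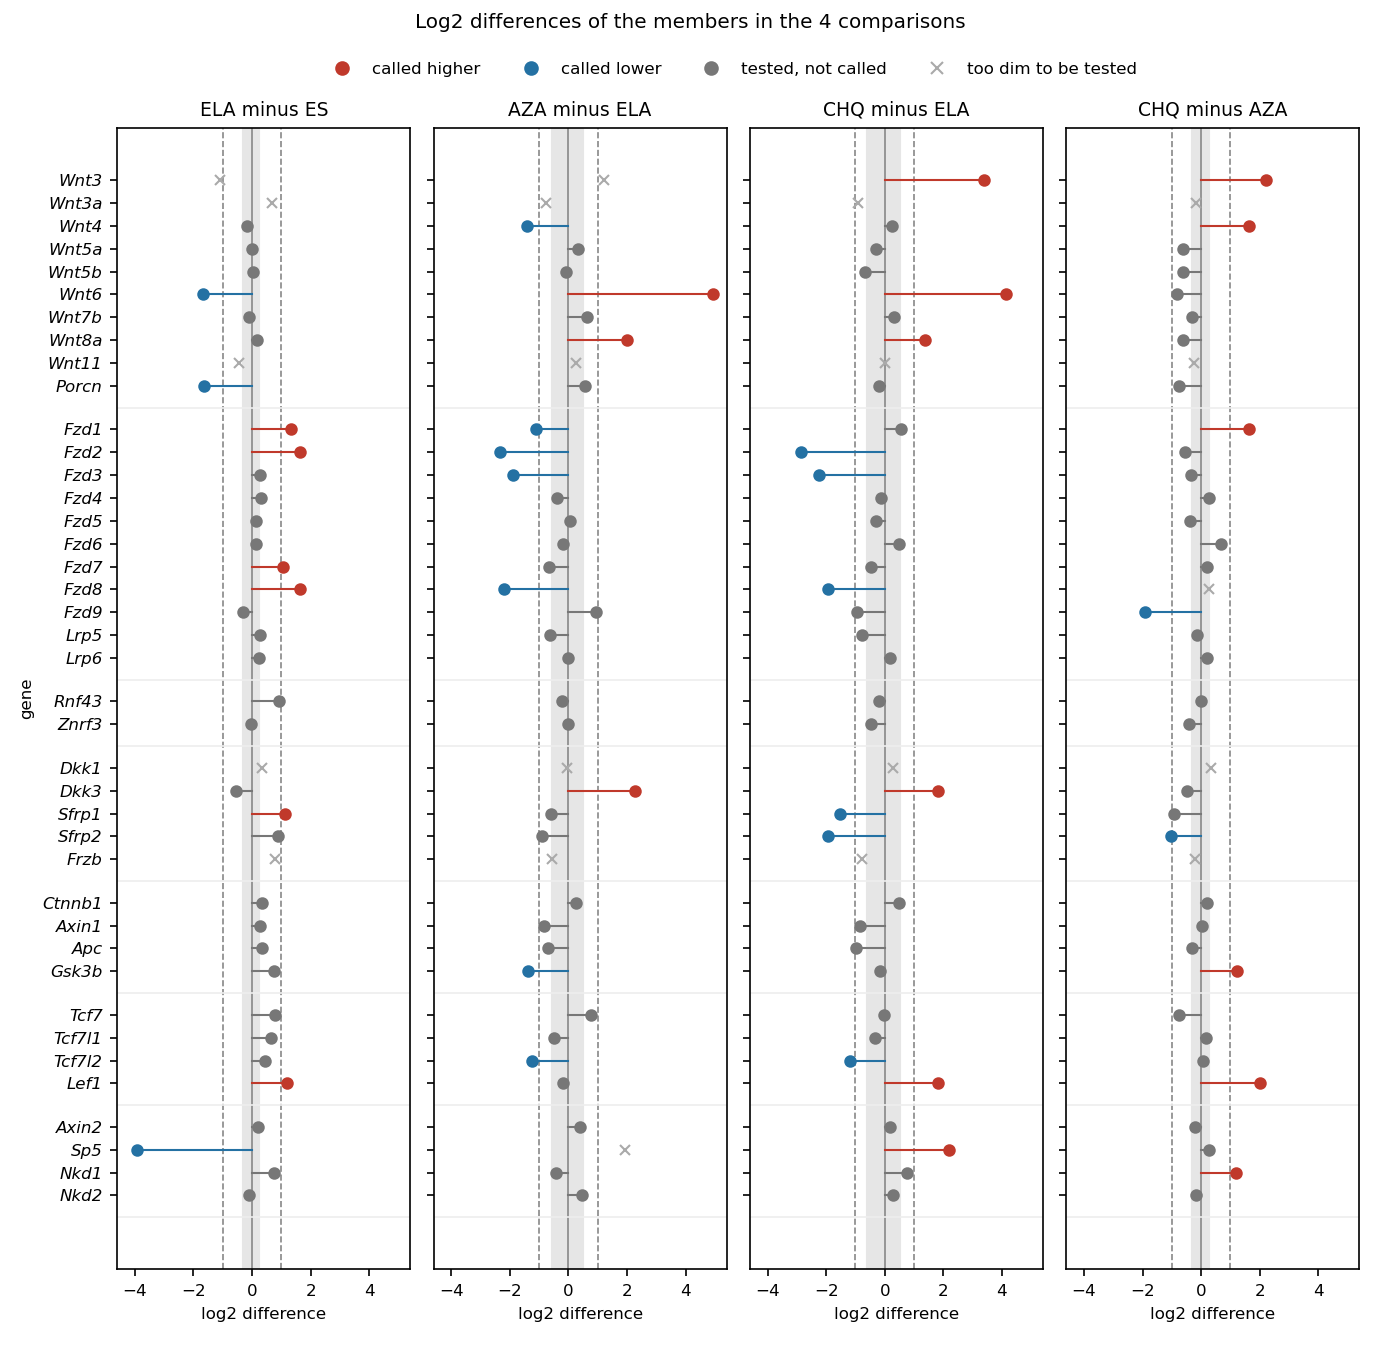
Log2 difference (x axis) of each of the 40 members (y axis, grouped by role) in the 4 comparisons, with 1 array per group. Dashed lines mark the size of a called difference, the gray band spans the middle quartiles of all genes tested, and crosses are members too dim to be tested. The Frizzled genes called higher in ELA than in ES lie to the right in the left panel. Wnt6, whose ELA value was near background, lies far to the right in both treatment panels. In the main processing its rise was at least 31.0-fold under AZA and at least 17.5-fold under CHQ.

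Among the ligands, Wnt6 was called in every comparison with ELA. Its level was 8.53 in ES, 6.87 in ELA, 11.83 under AZA and 11.00 under CHQ, and on the ELA array it was not well above background. It was thus lowest in ELA and higher in both treated pools than in ES. Against ES it was at least 3.15-fold lower in ELA, and against ELA it was at least 31.0-fold higher with AZA and at least 17.5-fold higher with CHQ, where a bound sets the brighter value against the detection floor of the ELA array or the probe's own value, whichever was higher. The fitted log2 differences were −1.66, 4.95 and 4.13, and with spike-in scaling they were −1.92, 4.59 and 3.66. All bounds given here are for the main processing.

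Wnt3, a ligand that the mouse embryo needs to form the primitive streak, had levels of 7.76 in ES, 6.68 in ELA, 7.88 under AZA and 10.08 under CHQ. It too was not well above background in ELA alone, and the CHQ pool stood above the other 3. CHQ was at least 10.1-fold above ELA and 2.20 log2 units above AZA, the latter within a slide. The fitted log2 difference of CHQ from ELA was 3.4, and it was 2.92 with spike-in scaling. The pairs of ELA with ES and of AZA with ELA had mean levels below 7.5 and were not tested. There the bounds were at least 2.03-fold lower in ELA than in ES and at least 2.19-fold higher with AZA than in ELA.

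Wnt8a, which is expressed in the early epiblast and streak, had levels of 7.57 in ES, 7.73 in ELA, 9.73 under AZA and 9.10 under CHQ. Both treated pools lay above both untreated ones, by 2.00 log2 units for AZA and 1.37 for CHQ against ELA. Wnt4, a ligand best known from kidney and gonad, had levels of 8.86, 8.70, 7.30 and 8.93 in the same order. Only the AZA pool was low, at −1.40 against ELA and with CHQ 1.64 above AZA. Porcn, the acyltransferase of the ligands, was at 10.23 in ES and at 8.58 in ELA, 9.13 under AZA and 8.39 under CHQ. It fell by 1.65 log2 units from ES to ELA and was not called in the other comparisons. Of the other ligands, Wnt5a, Wnt5b and Wnt7b were well above background on all 4 arrays and never called. Wnt11, although well above background on all 4, was too dim to be tested in any comparison, and Wnt3a was not well above background on any array.

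Sp5, a zinc-finger factor and direct target of beta-catenin, shared with Wnt6 and Wnt3 that it was well above background on every array but ELA. Its level was 10.45 in ES, 6.51 in ELA, 8.44 under AZA and 8.71 under CHQ. The ES pool was thus highest, and the treated pools lay between ES and ELA. Sp5 was at least 13.1-fold lower in ELA than in ES, and at least 3.26-fold higher with AZA and 3.92-fold higher with CHQ than in ELA. The AZA difference was not tested, because the mean level of its pair of arrays was just under 7.5. The fitted log2 difference between ELA and ES was −3.94, and under the alternative ways of processing it ranged from −5.64 to −3.94. Since Sp5 was not well above background in ELA, only the bound is read as a size. The high local background of the ELA array moves with these low values, and its part in them was not tested.

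The sequences upstream of Sp5, Wnt6 and Wnt3 are shown because these members were detected on every array except ELA, a group picked after their levels were seen. Each line holds the 250 bases before the annotated start from RefSeq (GRCm38.p6), read 5′ to 3′ on the gene's own strand, and capitals mark CTTTGAT or CTTTGAA on either strand, the core letters that TCF/LEF factors bind.
Sp5: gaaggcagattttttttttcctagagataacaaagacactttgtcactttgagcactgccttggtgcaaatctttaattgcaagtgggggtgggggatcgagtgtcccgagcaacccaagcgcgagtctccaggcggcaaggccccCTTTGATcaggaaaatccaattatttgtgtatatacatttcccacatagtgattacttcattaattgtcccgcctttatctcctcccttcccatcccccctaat
Wnt6: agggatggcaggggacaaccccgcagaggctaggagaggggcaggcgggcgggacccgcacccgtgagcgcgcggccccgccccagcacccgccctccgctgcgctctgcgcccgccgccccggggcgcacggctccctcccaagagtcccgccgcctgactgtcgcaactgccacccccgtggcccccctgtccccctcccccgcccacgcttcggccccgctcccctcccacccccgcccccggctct
Wnt3: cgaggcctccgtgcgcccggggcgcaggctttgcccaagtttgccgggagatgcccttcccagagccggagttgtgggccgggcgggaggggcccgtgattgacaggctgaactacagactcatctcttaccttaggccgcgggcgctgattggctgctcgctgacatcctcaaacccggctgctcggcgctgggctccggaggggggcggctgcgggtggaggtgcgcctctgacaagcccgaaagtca

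The windows lie on the plus strand at chr2:70474673-70474922 for Sp5, chr1:74771642-74771891 for Wnt6 and chr11:103773925-103774174 for Wnt3. The Sp5 window held CTTTGAT once, beginning 104 bases before the start, and the other 2 windows held neither word. Sp5 had 6 CpG pairs and a GC content of 46.0%, against 28 and 79.6% for Wnt6 and 22 and 68.0% for Wnt3. A window was found for 25 of the 40 members, with 35 windows in all since some genes have several starts. Of these, 4 windows or 11.4% held either word, beside 7.48% of all 32851 windows, and the words share their leading 6 letters. The other 3 were those of Wnt5b, with CTTTGAT at 71 bases before a start, Wnt11, with ATCAAAG at 51, and Dkk1, with CTTTGAA at 117. Member windows had a median of 16 CpG pairs and 65.2% GC, beside 6 and 52.4% for all windows. A match is a description of letters and not a binding site.

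On the array, the Sp5 probe lies at chromosome 2, 70315688 to 70315747, the Wnt6 probe at chromosome 1, 74831461 to 74831520, and the Wnt3 probe at chromosome 11, 103679038 to 103679097, each on the plus strand of mm9, the build of the scanner files. Each of these 3 genes had 1 probe, so no other probe bears on their values.

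**Figure D2:**
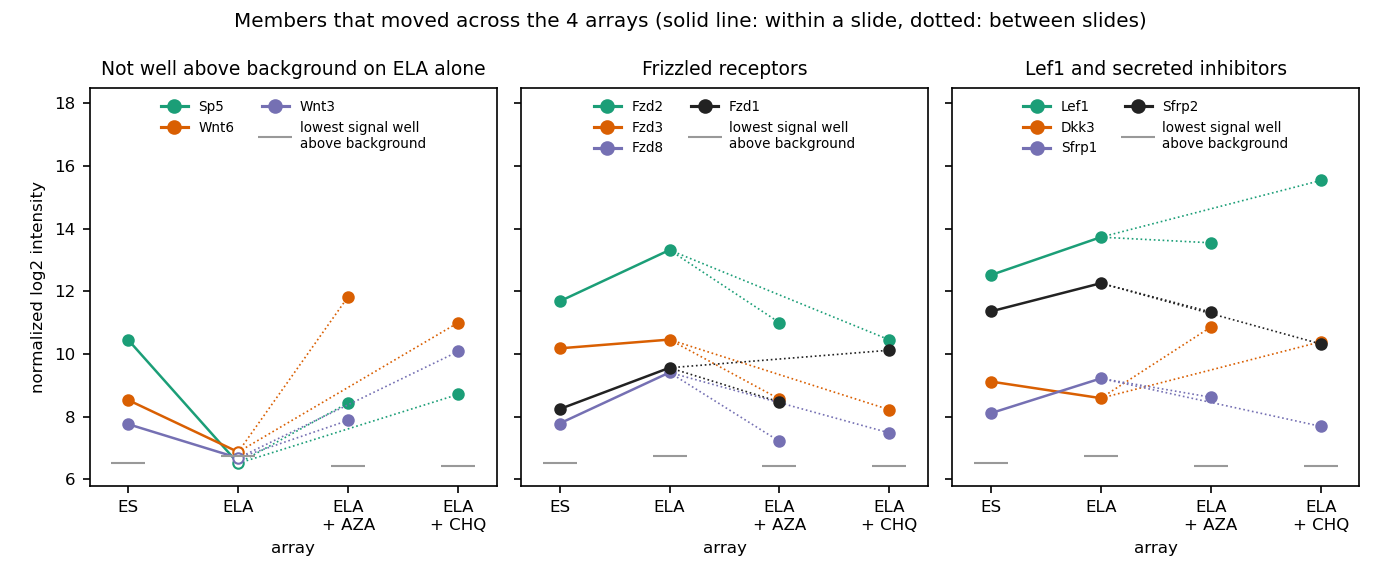
Normalized log2 intensity (y axis) of 11 members on the 4 arrays (x axis), 1 array per group; open points were not well above background, solid lines join arrays of 1 slide, dotted lines join ELA with each treated array on the other slide, and gray dashes mark the lowest signal well above background. Sp5, Wnt6 and Wnt3 are drawn open for ELA, Fzd2 and Fzd8 peak there, and Lef1 is highest at 15.54 with CHQ.

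All 11 receptors and coreceptors were well above background on every array. In ELA, 4 of the 9 Frizzled genes among the members were called higher than in ES and none lower, beside 4.46% and 5.59% of all genes tested, whereas Fzd10, which is not a member, was called lower at −1.42. The median of the 9 was 0.32 with 8 of 9 above 0, beside −0.02 over all genes tested. Scaling to spike-in probes moved the median of the same genes tested to −0.60 and the Frizzled median with it to −0.23, and left Fzd1 at 0.77 and Fzd7 at 0.47, so that 2 of the 9 met the size rule. With that scaling 4 of the 9 were above 0. Without background correction, with scaling to the 75th percentile or with the mean over probes, 7 of the 9 were. With AZA 4 and with CHQ 3 of these 9 were called lower than in ELA and none higher, whereas Fzd10 was called higher with both, at 3.06 and 2.77. The medians of the 9 were −0.67 and −0.47. Of all genes tested, 11.4% and 11.9% were called lower, and their medians were −0.07 and −0.09. These Frizzled medians stayed below 0 under all 6 alternative ways of processing, from −1.09 to −0.68 for AZA and from −0.95 to −0.48 for CHQ. The same ELA array enters the comparison with ES and both treatment comparisons, so these are not separate readings. The treated arrays were also on the other slide.

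Fzd2, a receptor for both beta-catenin and noncanonical signals, had levels of 11.68 in ES, 13.32 in ELA, 11.00 under AZA and 10.45 under CHQ. The ELA pool was the highest and both treated pools lay below ES as well. The difference of ELA from ES was 1.64, and those of AZA and CHQ from ELA were −2.32 and −2.87. A dimmer Fzd2 probe was well above background in ELA alone, with levels of 6.37, 7.35, 6.37 and 6.17.

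Fzd8 was likewise highest in ELA, with 7.78 in ES, 9.41 in ELA, 7.21 under AZA and 7.48 under CHQ. ELA was 1.63 above ES, and AZA and CHQ were at −2.20 and −1.93 against ELA. Fzd3, which is known for guiding axons, had levels of 10.18, 10.46, 8.56 and 8.22. Here the untreated pools lay together and both treated pools were low, with −1.90 for AZA and −2.24 for CHQ against ELA.

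Fzd1 had levels of 8.24 in ES, 9.56 in ELA, 8.47 under AZA and 10.12 under CHQ. ELA and CHQ were high and ES and AZA low, so that both within-slide differences passed the size rule, 1.32 for ELA against ES and 1.65 for CHQ against AZA. Against ELA, AZA was at −1.09 and CHQ at 0.56. Fzd9 had levels of 10.07, 9.77, 10.72 and 8.82, and the only call was CHQ against AZA, at −1.90.

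Fzd7, a Frizzled receptor prominent in pluripotent cells, was a case in which probes gave different sizes. Its brighter probe had levels of 11.49 in ES, 12.56 in ELA, 11.89 under AZA and 12.09 under CHQ, and its dimmer probe 8.50, 9.76, 7.58 and 7.37. Both were higher in ELA than in ES, by 1.07 and 1.27. Against ELA, the brighter probe was at −0.67 with AZA and −0.47 with CHQ, below the size rule, and the dimmer one at −2.18 and −2.40. Between CHQ and AZA the probes differed in sign, at 0.20 and −0.22. Which transcripts each probe reads was not examined here. Fzd4, Fzd5, Fzd6 and the coreceptors Lrp5 and Lrp6 were not called in any comparison.

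Rnf43 and Znrf3, ubiquitin ligases that remove Frizzled receptors from the cell surface, were well above background on every array and never called. Rnf43 had levels of 7.87 in ES, 8.77 in ELA, 8.56 under AZA and 8.56 under CHQ. The ES pool was the lowest, with 0.91 between ELA and ES, just below the size rule. Znrf3 had levels of 8.22, 8.18, 8.15 and 7.72.

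**Figure D3:**
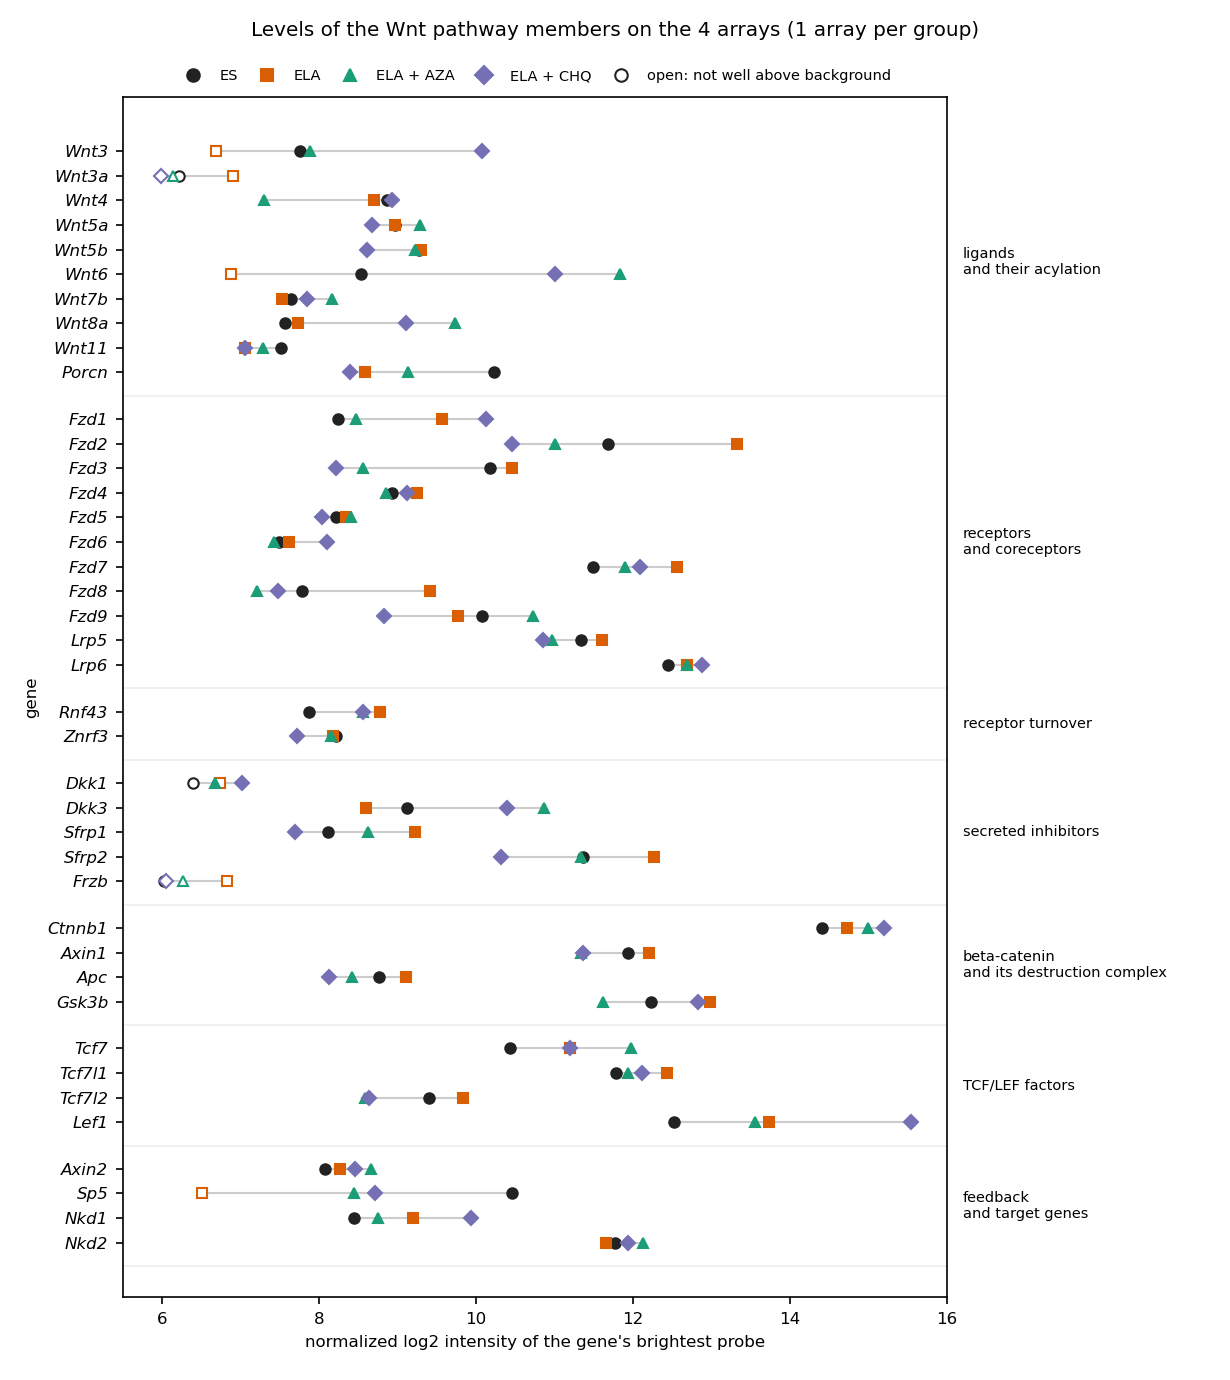
Normalized log2 intensity (x axis) of the brightest probe of each of the 40 members (y axis, grouped by role) on the 4 arrays, 1 array per group; open symbols were not well above background. Levels compare arrays within a gene and not genes with each other; Wnt6 lies at 11.83 with AZA and is drawn open for ELA.

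The secreted inhibitors moved in different directions. Dkk3, a member of the Dickkopf family, had levels of 9.12 in ES, 8.59 in ELA, 10.86 under AZA and 10.39 under CHQ. Both treated pools were high, with 2.28 for AZA and 1.81 for CHQ against ELA. Sfrp1 and Sfrp2 are secreted proteins that carry a Frizzled-like domain and bind Wnt ligands outside the cell. Sfrp1 was at 8.11 in ES, 9.22 in ELA, 8.62 under AZA and 7.69 under CHQ. ELA was the highest, 1.11 above ES, and CHQ the lowest, at −1.53 against ELA. Sfrp2 had levels of 11.36, 12.26, 11.34 and 10.32 in the same order. ELA was again the highest and CHQ the lowest, with a call for CHQ against ELA at −1.93 and against AZA at −1.02, while its difference between ELA and ES was 0.90. Dkk1, an inhibitor of the Lrp coreceptors, had levels of 6.39 in ES, 6.73 in ELA, 6.67 under AZA and 7.02 under CHQ, and was too dim to be tested. It was well above background only on the 2 treated arrays. The AZA level was not above that of ELA, and the detection floor was 6.74 on the ELA array and 6.41 on the AZA array. Frzb, another secreted Frizzled-related protein, was not well above background on any array.

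Of beta-catenin and its destruction complex, Gsk3b was the 1 gene called. Its level was 12.23 in ES, 12.98 in ELA, 11.61 under AZA and 12.83 under CHQ. The AZA pool alone was low, at −1.38 against ELA and with CHQ 1.22 above it on the same slide. The other 2 Gsk3b probes gave −1.27 and −1.35 for AZA against ELA and 1.14 and 0.78 for CHQ against AZA, so 1 of them stayed below the size rule in the latter. Ctnnb1, Axin1 and Apc were well above background on every array and never called. For Ctnnb1 the levels were 14.40, 14.73, 14.99 and 15.20. Its differences lay between 0.21 and 0.47.

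Among the TCF/LEF factors, Lef1, an activator with beta-catenin, was called in every comparison but AZA against ELA. Its level was 12.52 in ES, 13.73 in ELA, 13.55 under AZA and 15.54 under CHQ. ES was the lowest, ELA and AZA lay close together, and CHQ was the highest. The differences were 1.21 for ELA against ES, 1.82 for CHQ against ELA and 2.00 for CHQ against AZA, with −0.18 for AZA against ELA. The other Lef1 probe had levels of 10.73, 11.79, 11.28 and 13.33 and kept that order. Its within-slide differences were 1.06 and 2.05.

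Tcf7l2 was at 9.40 in ES, 9.83 in ELA, 8.58 under AZA and 8.64 under CHQ. Both treated pools were low, with −1.25 and −1.19 against ELA, but the mean over its 3 probes gave −0.93 and −0.74. Tcf7, and Tcf7l1, the repressor of the family that is prominent in ES cells, were never called. Tcf7 had levels of 10.43, 11.20, 11.97 and 11.19, and Tcf7l1 of 11.78, 12.43, 11.93 and 12.11. All 4 TCF/LEF factors had higher values in ELA than in ES, with a median of 0.71 beside −0.02 over all genes tested. With spike-in scaling the 2 medians were 0.10 and −0.60, and 3 of the 4 factors were above 0.

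Among the feedback and target genes, all 4 had values above 0 in CHQ against ELA, with a median of 0.52 beside −0.09 over all genes tested. However, 3 of 4 did with spike-in scaling and 2 of 4 with the mean over probes. Sp5, 1 of the 4, passed the condition on background only through the CHQ array, where it was high. The values without it were 0.18 for Axin2, 0.29 for Nkd2 and 0.75 for Nkd1. Apart from Sp5, described above, Nkd1, an inhibitor that acts on Dishevelled, was the 1 gene called. It had levels of 8.44 in ES, 9.19 in ELA, 8.75 under AZA and 9.94 under CHQ. CHQ was the highest, at 1.19 above AZA within the slide and 0.75 above ELA, although the mean over its probes gave 0.74 for the former. Axin2, the target most widely used as a readout of the pathway, had levels of 8.08, 8.27, 8.66 and 8.45. Its differences lay between −0.21 and 0.38, and no comparison called it. A second Axin2 probe was too dim to be tested in any comparison. Nkd2 was at 11.77, 11.65, 12.13 and 11.94 and was never called, and its probes differed in sign in 3 comparisons.

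Over all roles, 19 members were called in at least 1 comparison and 21 in none, with differences of −0.98 to 0.91 in the latter. The share of all genes called in at least 1 comparison was not taken, so these counts have no background beside them. Of these 21, Wnt3a, Wnt11, Dkk1 and Frzb were too dim to be tested in any comparison, which leaves 17. On all 4 arrays 34 members were well above background. Of the 40 genes, 12 had more than 1 probe, which gave 14 other probes. Among the other probes that could be tested, 7 of 9 had the sign of the brightest probe in ELA against ES and in each treatment against ELA, and 6 of 7 in CHQ against AZA. The largest gap between probes of a gene was 1.93, for Fzd7 in CHQ against ELA.

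Other genes of the pathway were read from a list of 58, of which 57 were on the array. The list was chosen with earlier results of these data known, so its shares describe the list only. The largest differences given are those of genes well above background on both arrays of the comparison. In ELA against ES, 5 of 37 tested were called higher and 4 lower, or 24.3% beside 10.0% of all genes tested. Among them were Rspo1, a secreted enhancer of Wnt signals, at 2.06, Prickle1 at 1.63 and Btrc at 1.36, for which the other probe gave 0.37, and on the lower side Myc at −1.54, Fzd10 at −1.42 and Vangl1 at −1.11. With AZA, 5 of 39 were called higher and 6 lower than in ELA, or 28.2% beside 25.6%. They included Fzd10 at 3.06, Vangl1 at 2.73 and Sfrp4 at 1.81. On the lower side were Bcl9, a coactivator of beta-catenin, at −2.66, Prickle1 at −2.45 and Rspo1 at −2.38. The other Bcl9 probe gave −1.37. With CHQ, 9 of 39 were called higher and 7 lower, or 41.0% beside 26.6%. They included the ligand Wnt9a at 3.40, Fzd10 at 2.77 and Vangl1 at 1.75, for which the other probe gave 0.48. On the lower side were Prickle1 at −3.29, Bcl9 at −2.52 and Rspo1 at −2.10. The other Bcl9 probe gave −1.73. Against AZA, CHQ had 7 of 41 called higher and 1 lower, or 19.5% beside 10.3%. The former included Wnt9a at 2.49, Apc2 at 1.5 and Celsr1 at 1.35, and the latter was Sfrp4 at −1.21. The higher calls in these counts also hold Wnt10a for both treatments against ELA, Wnt8b for CHQ against ELA and Lgr5 for CHQ against AZA. There these genes passed the condition on background only through the array where they were high. Shares with both arrays required were not taken for this list.

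The ligand Wnt10a, named after its values were seen, was called higher with both treatments but was not well above background in ELA. Its level was 7.55 in ES, 6.40 in ELA, 9.91 under AZA and 10.12 under CHQ, so that it too was detected on every array but ELA. It was at least 8.97-fold higher with AZA and at least 10.4-fold higher with CHQ than in ELA, and the pair of ELA with ES was too dim to be tested. Also named after their values were seen, and well above background on only 1 array of the pair, were Wnt8b, another ligand, at least 3.38-fold higher with CHQ than in ELA, and Lgr5, a receptor for the Rspo enhancers, at least 5.19-fold higher with CHQ than with AZA. For CHQ against ELA, the fitted log2 difference of this Wnt8b probe was 1.78, and the other Wnt8b probe gave 1.03. Vangl1, Prickle1 and Celsr1 belong to the planar cell polarity branch, which does not act through beta-catenin.

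**Figure D4:**
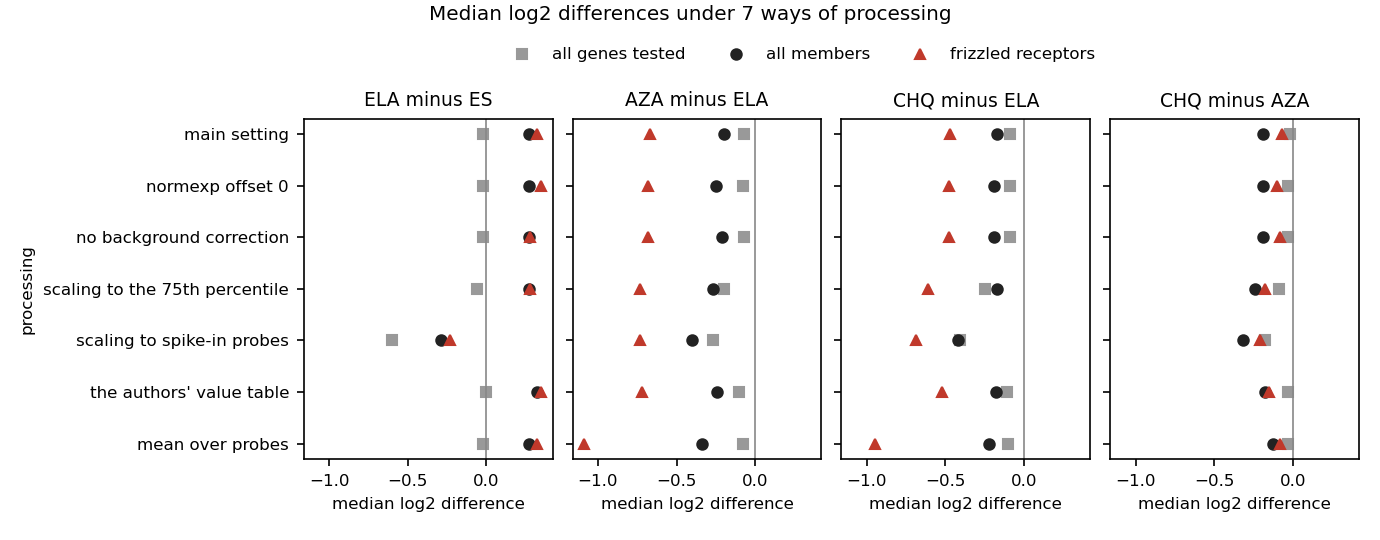
Median log2 difference (x axis) of all genes tested, of the members tested and of the 9 Frizzled genes (8 in CHQ against AZA) under 7 ways of processing (y axis) in the 4 comparisons. In ELA against ES the members lie above all genes tested in each row, but spike-in scaling lowers all 3 medians and takes those of the members and of the Frizzled genes below 0; Frizzled medians lie below 0 in every row for both treatments against ELA.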

How the data were processed

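Total RNA was measured on 4 single-color Agilent mouse arrays of 62976 spots with probes of 60 bases. Per the file headers, the authors read the scans with Feature Extraction 10.7.3.1, while the submitters' processing notes name version 9.1. The deposited scanner files hold the mean intensity and the median background intensity of each spot, not normalized between arrays. A deposited table of log2 values had been corrected for background and quantile-normalized by the authors with limma. Across 55122 probes each array of that table correlated at 0.9991 to 0.9994 with scanner log2 values corrected without an offset, and its column medians were 6.20 to 6.24.

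Main values were computed with limma 3.58.1 in R 4.3.3 from the scanner files, by normexp correction with an offset of 50 and quantile normalization. The study's methods name background correction and quantile normalization with limma, and normexp and the offset were chosen here. Control spots and spots with an outlier flag were left out, which removed 559 probes, and no spot was saturated. Repeat spots were averaged, and a gene was read from its brightest probe by the mean of all 4 arrays. The thresholds of 1 and 7.5 are those of the study, whose p-value threshold needs replicates. Here 7.5 was applied to values with the offset, and more members passed it than on the authors' value table. In ELA against ES, AZA against ELA, CHQ against ELA and CHQ against AZA, 35, 34, 36 and 35 members were tested. On the authors' value table these numbers were 31, 30, 31 and 30. With 1 array per group no test was run, and precision is limited by the number of arrays. Levels are given for every member called in at least 1 comparison, and other members are given by range or levels. Of the other pathway genes at most 3 rises and 3 falls per comparison are named, the largest among those called and well above background on both arrays. Wnt10a, Wnt8b and Lgr5 are exceptions, named after their values were seen. Members and lists were chosen with earlier results of these data known. Alternatives were the background correction, the scaling (75th percentile of each array, or 7 spike-in probes), the authors' value table, the mean over probes, the filters and a difference of 1.5. An array of a further knockdown was not analysed here.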

Additional observations from a re-analysis of the deposited data

How the results depend on the processing

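No call of a member changed sign under 6 alternative ways of processing. Of 234 alternative values of the 39 calls, 227 kept a difference of at least 1. The other 7 fell below it. Scaling to spike-in probes gave 0.77 for Fzd1, 0.47 for Fzd7, 0.56 for Sfrp1 and 0.56 for Lef1 in ELA against ES, and the mean over probes gave −0.93 and −0.74 for Tcf7l2 against ELA and 0.74 for Nkd1 in CHQ against AZA. The median of the members moved with spike-in scaling to −0.29 in ELA against ES and to −0.42 in CHQ against ELA, and that scaling moved the median of all genes tested to −0.59 and −0.39. With a size rule of 1.5 the members called numbered 5 in ELA against ES, 6 in AZA against ELA and 5 in CHQ against AZA. Shares of all genes called were taken only for the main processing and with both arrays required to be well above background. The other counts given here therefore have no background beside them. The split of higher and lower calls, 6 and 3 in ELA against ES, became 2 and 5 with spike-in scaling. It became 7 and 2 without an offset or with the 75th percentile, 7 and 3 without background correction, and 6 and 2 with the authors' value table. For AZA against ELA it was 3 and 7. There it became 3 and 6 with the 75th percentile or the authors' value table, and 4 and 7 with spike-in scaling. For CHQ against ELA it was 6 and 6, and became 5 and 8 without an offset and 5 and 7 without background correction. It became 4 and 8 with the 75th percentile or the authors' value table, and 6 and 9 with spike-in scaling. For CHQ against AZA it was 6 and 2, and became 5 and 3 with the 75th percentile. It became 6 and 3 without an offset, without background correction or with spike-in scaling. With the authors' value table or the mean over probes it was 5 and 2. With both arrays required to be well above background it was 6 and 1 in ELA against ES, 2 and 7 in AZA against ELA, where it had been 3 and 7, and 3 and 6 in CHQ against ELA. That change comes from Wnt6, Sp5 and Wnt3, which were not well above background in ELA. The cause of the other shifts was not tested. The authors' value table gave larger differences for dim genes, such as −4.99 for Sp5 in ELA against ES and 6.02 for Wnt6 in AZA against ELA. Signals near background limit Sp5, Wnt6 and Wnt3 on the ELA array to bounds, and these bounds are for the main processing. No paired analysis was possible because each group has 1 array, and no array could be left out for the same reason.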
